A study of Mus musculus with 8 samples.

Results

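Genes for the enzymes and remodelers that write, erase and read histone marks were compared between CKO and WT samples of conventional dendritic cells (cDCs) from mouse spleen. The members were taken by name: lysine demethylases (Kdm), lysine methyltransferases (Kmt and Setd), histone deacetylases (Hdac), sirtuins (Sirt1 to Sirt7), Smarc remodeler subunits, numbered bromodomain genes (Brd) and the Polycomb methyltransferases Ezh1 and Ezh2, with Kdm5d left out. This gave 75 of 31053 genes in the count table. Of these, 72 had enough counts to be tested, among 11702 genes tested in all. Smarcd3, Smarca1 and the antisense transcript Kdm6bos did not pass the filter on low counts.

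The data were RNA-seq gene counts from 8 libraries, 4 labelled CKO and 4 labelled WT. Spleen cells enriched to about 20% dendritic cells were cultured for 9 h with 100 nM CpG-B, an unmethylated DNA that activates Toll-like receptor 9, and cDCs were then sorted as lineage-negative cells positive for MHC II and CD11c. Both groups received CpG-B, so the comparison is between genotypes in stimulated cells. Which gene the CKO lacks, the Cre driver, and the strain, age and sex of the mice are not stated in the sources used here. Since no label ties each library to its own animal, p-values cover only the variation among these libraries, some of it possibly technical.

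Histone methyltransferases of the KMT2 and SETD1 families mark promoters and enhancers at lysine 4 of histone H3, and EZH enzymes place the repressive Polycomb mark on lysine 27. LSD-type and JmjC demethylases remove such marks, and deacetylases and sirtuins remove acetyl groups that bromodomain proteins bind. SWI/SNF and ISWI complexes use ATP to move or evict nucleosomes. In dendritic cells and macrophages these enzymes shape which inflammatory genes can be induced by microbial ligands.

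Of these genes, 9 differed between the genotypes past an adjusted p of 0.05. Higher in CKO cDCs were Kmt2c, Kdm1b, Kdm6a, Sirt1, Smarca2, Smarcc1 and Smarca5, by 1.49-fold to 2.12-fold, and lower were Kmt2b and Brd9, at 0.657 and 0.692 of the WT level. The remaining 63 of the 72 tested did not pass the edgeR quasi-likelihood test with Benjamini-Hochberg adjustment over all 11702 genes. The members' count was 7 higher and 2 lower, or 12.5%, where 8.87% of all genes tested passed, 4.3% higher and 4.57% lower in CKO. The median log2 fold change, CKO over WT, was 0.11 over the members and 0.03 over all genes tested, and 45 of 72 members had a positive value against 6205 of 11702 genes. In 8 members every CKO library was above every WT library, and in 4 every CKO library was below, where 7.85% and 8.09% of all genes tested did so. Single libraries decided how many genes passed, among the members as over all genes. No member passed without CKO D163, without WT D150 or without WT D154, when 70, 82 and 138 of all genes passed. The members' count was 3 higher and 1 lower without CKO D169, 2 higher and 1 lower without WT D142, and 14 higher and 1 lower without WT D164. In those fits 3.86%, 2.92% and 12.4% of all genes passed. The members' count was 7 higher and 6 lower without CKO D146, and 7 higher and 2 lower without CKO D149. Of all genes, 11.1% and 11.2% then passed.

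**Figure D1:**
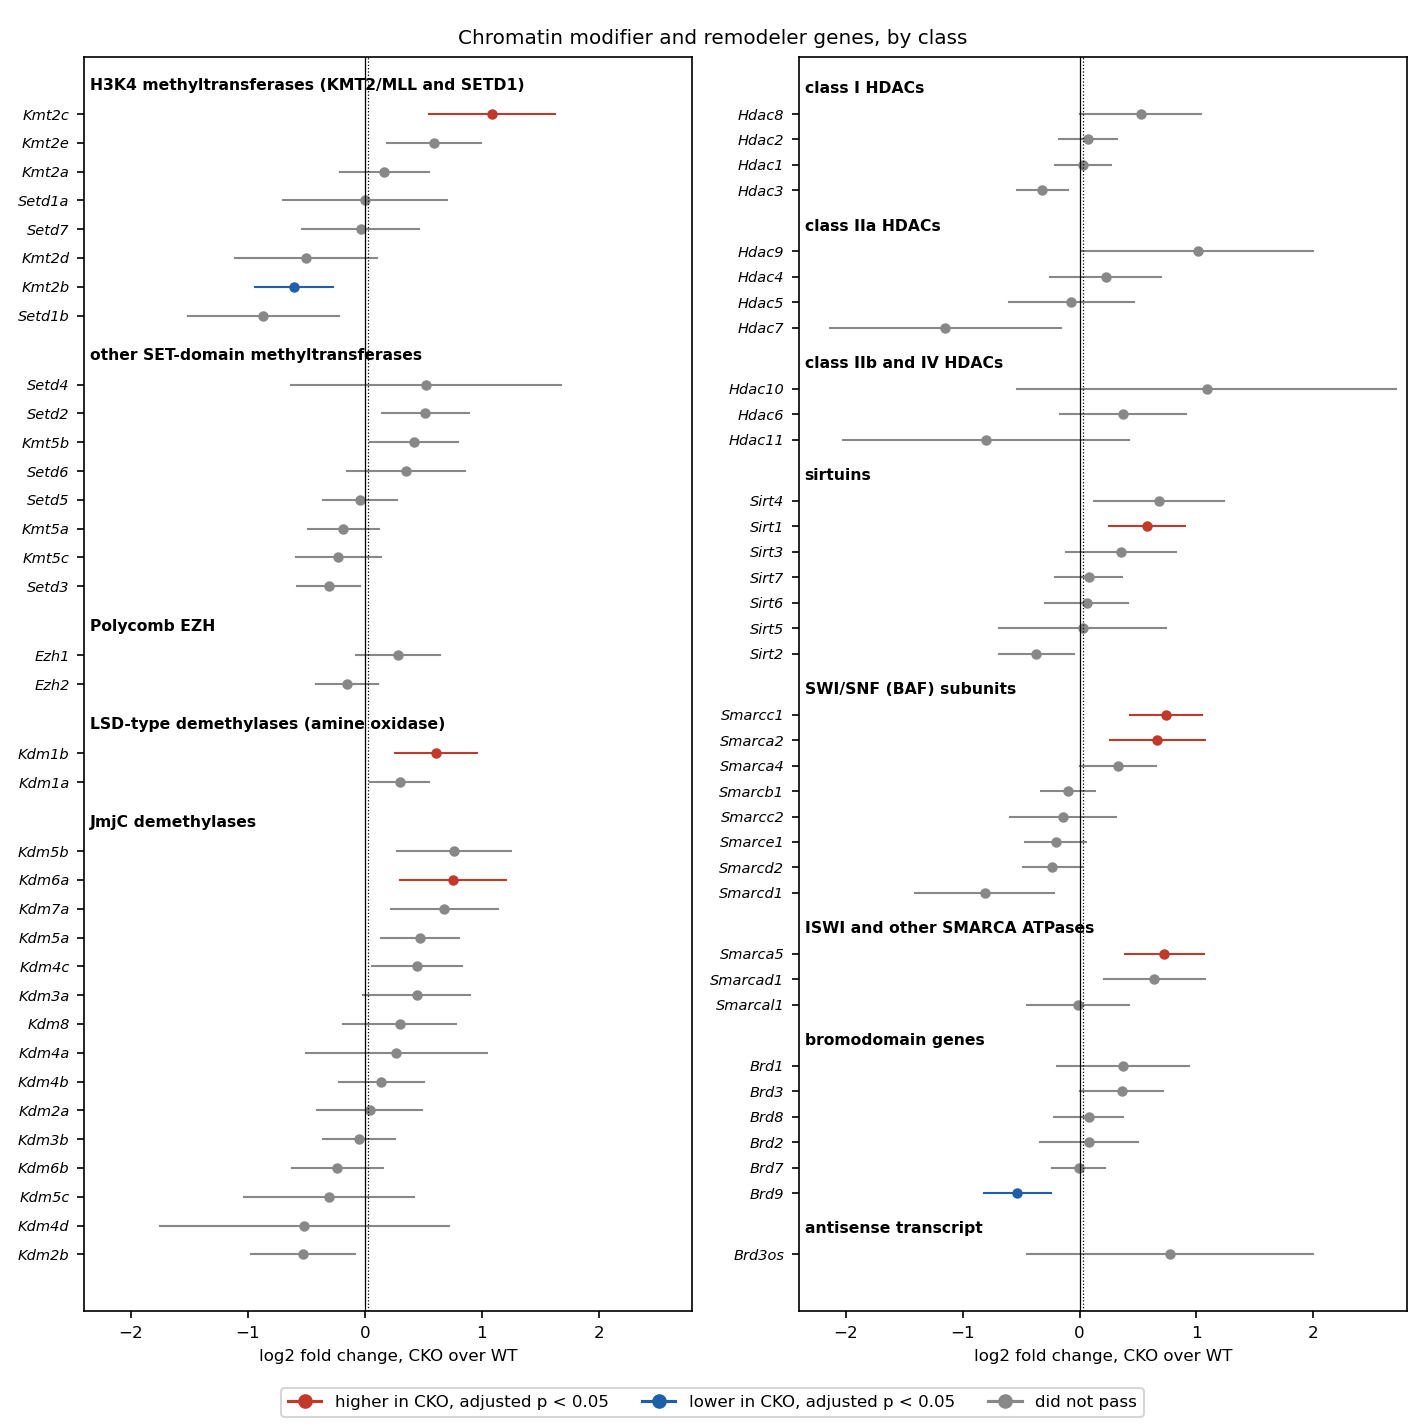
The log2 fold change of 71 of the 72 tested members, CKO over WT, by class, with 95% confidence intervals as bars from the edgeR quasi-likelihood fit of 4 CKO and 4 WT libraries. The solid line is 0 and the dotted line the median of all genes tested (0.03); red points passed as higher in CKO, blue points as lower and grey points did not pass, and most classes hold points on both sides of the line.

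Library totals ranged from 25304765 to 40950088 counts, and the members took 0.346% to 0.402% of counts in CKO libraries and 0.303% to 0.360% in WT libraries. These shares are of unscaled counts. With TMM scaling and in length-scaled units (FPKM), the members' sums were 582 to 608 in CKO libraries and 573 to 611 in WT libraries. Dendritic cell and cDC1 marker sums overlapped between the groups, at 23326 to 35903 and 2644 to 3712 CPM (normalised counts scaled to library size) in CKO and 29149 to 41362 and 3250 to 3876 CPM in WT. Most of the dendritic cell sum came from Ccr7 and Cd74. Most of the cDC1 sum came from Irf8 (mean 3128 CPM in CKO, 3386 CPM in WT), so these sums describe few genes. Among the cDC surface markers, Xcr1 (0.851 CPM in CKO, 0.724 in WT) and Clec9a (0.94 CPM in CKO, 0.916 in WT) were near the low end in both groups. The 8 B cell markers, all detected, summed to 29.9 to 127 CPM in CKO libraries and 29.5 to 56.9 CPM in WT libraries, and 1 of the 8, Ms4a1, was higher in CKO (edgeR adjusted p = 0.0475). In a fit with the mean B cell marker level as covariate, 4 members passed as higher (Kmt2c, Kdm6a, Smarcc1 and Smarca5) and none as lower, where 3.84% of all genes passed, 2.4% higher and 1.44% lower. The members that no longer passed had log2 fold changes as large as before in that fit, at 0.72 for Kdm1b, 0.64 for Sirt1, 0.76 for Smarca2, −0.62 for Kmt2b and −0.56 for Brd9, with edgeR adjusted p of 0.0658 to 0.0944. Marker sums also overlapped between the groups for cDC2 (220 to 350 CPM in CKO, 157 to 294 CPM in WT) and plasmacytoid DCs (503 to 732 CPM in CKO, 677 to 1014 CPM in WT). Irf4 made up most of the cDC2 sum and Bst2 most of the plasmacytoid DC sum. Sums for T cells (27.5 to 57.2 CPM in CKO, 18.1 to 37.1 CPM in WT) and erythroid cells (5.22 to 73.2 CPM in CKO, 50.9 to 168 CPM in WT) overlapped too. So did those for NK cells (87.0 to 228 CPM in CKO, 112 to 193 CPM in WT). In these lists Cd4 (1 of 5 cDC2 markers), Ly6d (1 of 5 plasmacytoid DC markers) and Trac (1 of 5 T cell markers) passed as higher in CKO, and Bst2 (plasmacytoid DC) and Alas2 (1 of 4 erythroid markers) as lower. The part of these other cells in the members' differences was not tested. In bulk RNA, fewer cells of a type and less RNA per cell cannot be told apart.

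The promoters of Smarca5 and Smarcc1, the remodeler genes with the smallest p-values among the members, are shown from RefSeq on GRCm38.p6. Each stretch starts 250 bases before the RefSeq start and is cut at the first annotated exon, on the gene's own strand. The Smarca5 stretch lies at chr8:80739498-80739709 and has 212 bases, and the Smarcc1 stretch lies at chr9:110131774-110131979 and has 206 bases. Capitals mark the NRF1 motif GCATGCGC or the ETS motif CCGGAAG on either strand.
Smarca5: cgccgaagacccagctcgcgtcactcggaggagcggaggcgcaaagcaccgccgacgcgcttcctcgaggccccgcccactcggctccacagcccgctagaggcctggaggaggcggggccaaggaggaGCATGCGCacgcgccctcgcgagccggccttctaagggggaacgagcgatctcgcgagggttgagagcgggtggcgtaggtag
Smarcc1: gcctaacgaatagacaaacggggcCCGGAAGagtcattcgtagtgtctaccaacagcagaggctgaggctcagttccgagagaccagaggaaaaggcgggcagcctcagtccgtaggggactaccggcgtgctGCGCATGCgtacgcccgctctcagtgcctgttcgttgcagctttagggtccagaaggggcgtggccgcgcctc
Both stretches hold the NRF1 letters, which end 114 bases before the start in Smarca5 and 110 bases before it in Smarcc1. Smarcc1 also holds the ETS letters. In both genes the start used here lies inside the deposited gene span, near its first base in Smarca5. The whole Smarcc1 window, which ends at 110132023, lies inside a span that begins at 110117708. The Sirt1 window counted below (63339036 to 63339285) also lies inside its gene (63319005 to 63381704).

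Of the 72 tested members, 58 matched a RefSeq promoter, as did 9124 of all genes tested. In windows of 250 bases, the NRF1 letters occurred in 6 of 58 members (10.3%) and in 4.77% of all matched genes. Of the 8 matched members that passed, only the 2 printed above, Smarca5 and Smarcc1, held them. The ETS letters occurred in 11 of 58 members (19%), 3 of them among those 8, and in 14.8% of all. The SP/KLF letters GGGCGG occurred in 37 of 58 members (63.8%), among them all 8 matched genes that passed, and in 59.5% of all. The NF-kB letters (GGGA, 2 free bases, TTCC) occurred in 0 of 58 members and 1.26% of all, the AP-1 letters TGANTCA in 3 of 58 and 4.23%, the IRF letters (GAAA, 2 free bases, GAAA) in 1 of 58 and 2.94%, and the E-box letters CACGTG in 2 of 58 (Kdm6a and Sirt1, both among the 8) and 8.55%. Both strands were searched, each motif on its own, so matches of different motifs could overlap. Median GC content was 61.6% in members' promoters and 59.6% in all, with a median of 20 and 16 CpG sites.

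Smarc genes gave 3 of the 9 members that passed, all higher in CKO. With 11 Smarc genes tested this was 27.3%, against 8.87% of all genes in either direction and 4.3% as higher. Smarcc1, a scaffold subunit at the core of SWI/SNF (chromosome 9, 110117708 to 110240178, plus strand, mm10), had 26.5, 27.2, 31.6 and 22.9 CPM in CKO libraries and 15.3, 16.0, 15.2 and 18.4 CPM in WT libraries. Every CKO value was above every WT value. The log2 fold change was 0.74 ± 0.14 (SE; 95% interval 0.43 to 1.05; edgeR adjusted p = 0.0177), the smallest p among the members. Smarca5 (SNF2H), the ISWI ATPase that slides nucleosomes (chromosome 8, 80698507 to 80739497, minus strand), had 141.6, 167, 188 and 144 CPM in CKO libraries and 80.5, 90.9, 91.0 and 125 CPM in WT libraries. The groups did not overlap, and WT D164 was the nearest WT library to CKO. Its log2 fold change was 0.72 ± 0.15 (SE, edgeR adjusted p = 0.0227), and in length-scaled units (FPKM) it had 20.6 ± 2.79 in CKO and 12.5 ± 2.51 in WT (SD, n = 4 each). Smarca2 (BRM), 1 of the alternative SWI/SNF ATPases, had 13.2, 16.2, 14.9 and 9.72 CPM in CKO libraries and 7.71, 7.95, 9.55 and 8.85 CPM in WT libraries. CKO D169 lay just above WT D154, and the log2 fold change was 0.67 ± 0.18 (SE, edgeR adjusted p = 0.046).

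The other tested SWI/SNF subunits with Smarc names did not pass with edgeR. Of the 9 Smarc-named subunits 8 were tested, with 2 higher and 0 lower (25%, against 8.87% of all genes tested) and 5 negative values. The median log2 fold change of this class was −0.12, and 0.04 with total-count scaling. Among subunits named otherwise, Brd9 passed as lower. Of 13 tested BAF and PBAF partner genes 1, Pbrm1, passed as higher (7.69%). Both are given below. Smarca4 (BRG1), the partner ATPase to Smarca2, averaged 10.6 FPKM in CKO and 8.47 FPKM in WT, with a log2 fold change of 0.33 ± 0.15 (SE, edgeR adjusted p = 0.173). Smarce1, the most abundant Smarc gene, averaged 77.1 FPKM in CKO and 88.8 FPKM in WT (log2 fold change −0.20, edgeR adjusted p = 0.278). Smarcd1, an accessory subunit, had 27.6, 14.4, 14.6 and 9.20 CPM in CKO libraries and 24.4, 29.6, 29.4 and 32.3 CPM in WT libraries. CKO D146 sat within the WT range, and the difference did not pass with edgeR (log2 fold change −0.81 ± 0.27, edgeR adjusted p = 0.08), but did with DESeq2 (adjusted p = 0.0223) and limma-voom (adjusted p = 0.0487). Among the ISWI and related ATPases Smarcad1 gave 0.64 ± 0.20 (edgeR adjusted p = 0.0654). The 3 tested genes of that class summed to 190 ± 26.1 CPM in CKO and 120 ± 22.2 CPM in WT (SD, n = 4), most of it Smarca5.

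**Figure D2:**
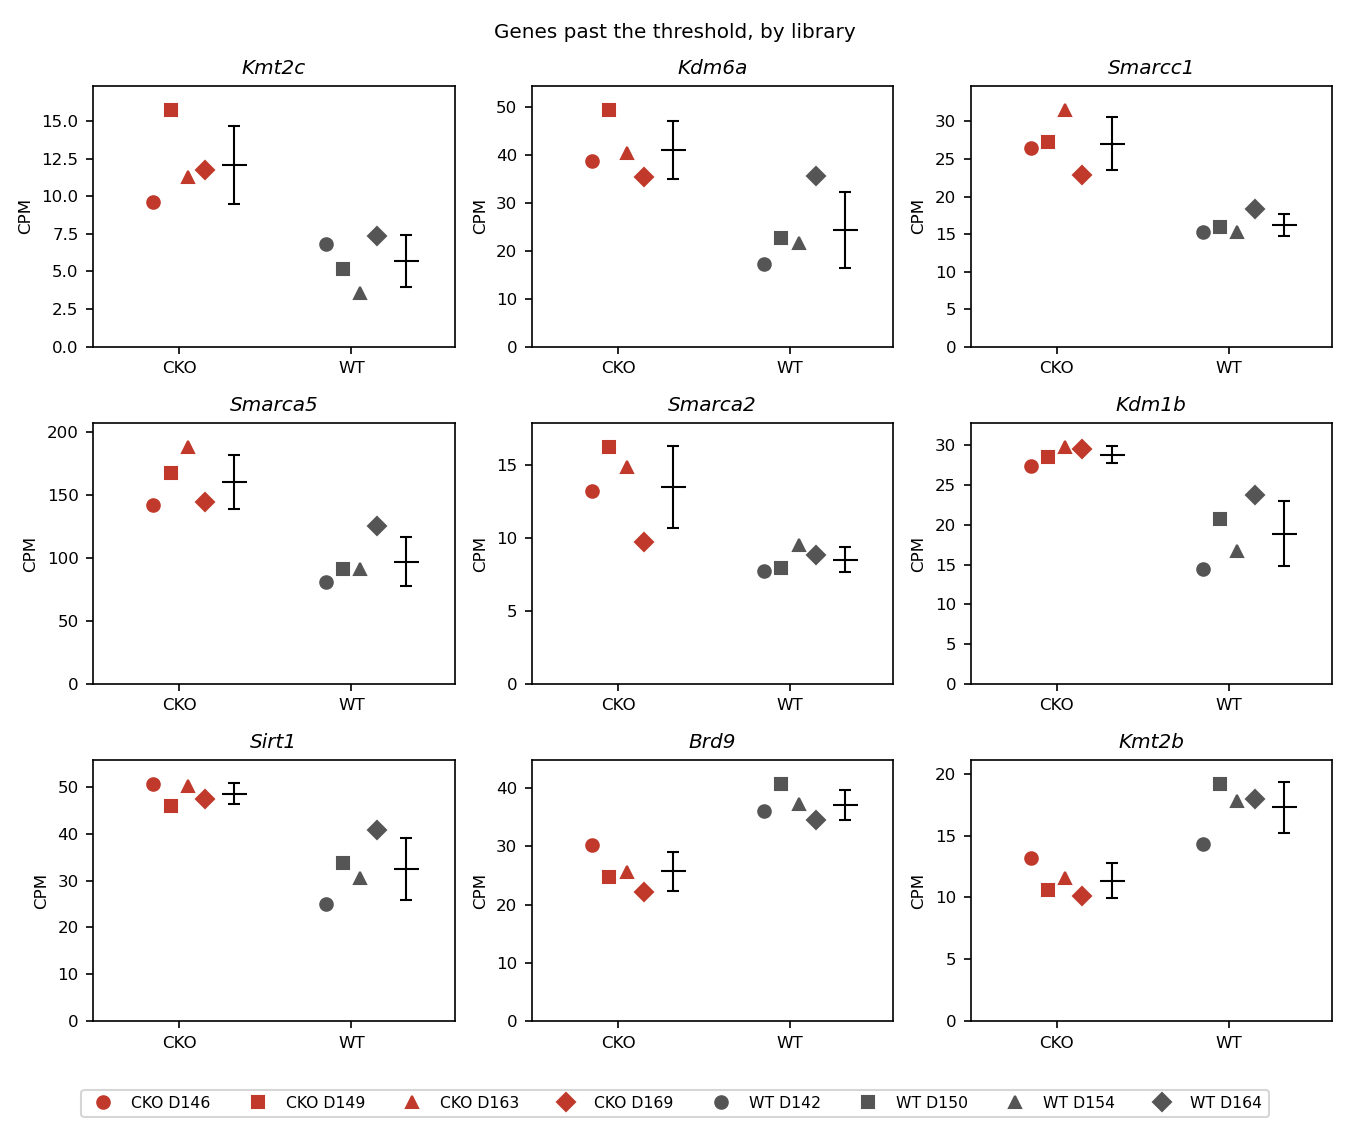
CPM in each library for the 9 members that passed, with CKO libraries (red) left of WT libraries (grey); the horizontal tick and bar at the right of each group are its mean and SD (n = 4). Kmt2b and Brd9 are the 2 panels with WT above CKO, and only Kdm6a has overlapping groups.

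Methyltransferases of histone H3 lysine 4 moved in both directions: 1 of 8 tested passed as higher and 1 as lower (25%, against 8.87% of all genes tested). The median log2 fold change was −0.02, or 0.15 with total-count scaling and −0.23 with an offset for GC content and length. Kmt2c (MLL3), which with Kmt2d places the enhancer mark H3K4 monomethylation (chromosome 5, 25271798 to 25498783, minus strand), had 9.62, 15.8, 11.3 and 11.8 CPM in CKO libraries and 6.84, 5.13, 3.55 and 7.34 CPM in WT libraries. No CKO library fell into the WT range, and the log2 fold change was 1.08 ± 0.25 (SE; 95% interval 0.55 to 1.62; edgeR adjusted p = 0.0267). Kmt2b (WBP7), which acts mainly at promoters (chromosome 7, 30568858 to 30588726, minus strand), had 13.2, 10.6, 11.6 and 10.1 CPM in CKO libraries and 14.3, 19.2, 17.8 and 17.9 CPM in WT libraries. All CKO values were below all WT values, by 0.61 on the log2 scale (−0.61 ± 0.15, edgeR adjusted p = 0.0363). Kmt2d gave −0.50 ± 0.28 and did not pass, with CKO D146 above every WT library (edgeR adjusted p = 0.255). Of the other genes of the class, 2 had adjusted p between 0.05 and 0.1: Kmt2e, whose SET domain is thought to lack methyltransferase activity, gave 0.59 ± 0.18 (edgeR adjusted p = 0.0668), and Setd1b gave −0.87 ± 0.30 (edgeR adjusted p = 0.0841) at about 1 CPM. Kmt2e was the most abundant gene of the class, at 6.90 FPKM in CKO and 4.59 FPKM in WT.

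Of the 8 other SET-domain methyltransferases, 0 passed with edgeR, 3 had an unadjusted p under 0.05, 1 passed with DESeq2 and 0 with limma-voom, where 28.6%, 17.2% and 10.1% of all genes tested did so. Setd2, which trimethylates lysine 36 of H3 on transcribed genes, averaged 20.4 ± 3.33 CPM in CKO and 14.3 ± 2.47 CPM in WT (log2 fold change 0.52 ± 0.17, edgeR adjusted p = 0.0774). Setd3, known as an actin histidine methyltransferase, averaged 13.3 FPKM in CKO and 16.5 FPKM in WT (edgeR adjusted p = 0.123). The Polycomb pair also did not pass: neither Ezh2 nor Ezh1 had an unadjusted p under 0.05 in edgeR, nor passed with DESeq2 or limma-voom. Ezh2 averaged 118 ± 10.95 CPM in CKO and 131 ± 15.2 CPM in WT, a log2 fold change of −0.15 with a 95% interval of −0.42 to 0.11.

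Of 17 tested Kdm genes 2 passed, both as higher in CKO (11.8%, against 8.87% of all genes in either direction), and 12 had positive values (70.6%, against 53.0% of all genes). Kdm1b (LSD2), an amine oxidase demethylase of H3 lysine 4 (chromosome 13, 47043499 to 47085279, plus strand), had 27.4, 28.6, 29.8 and 29.6 CPM in CKO libraries and 14.5, 20.7, 16.8 and 23.7 CPM in WT libraries. The CKO values were close together and all above the WT values, which spread more. Its log2 fold change was 0.61 ± 0.16 (SE, edgeR adjusted p = 0.04). The related Kdm1a (LSD1), more abundant at 22.9 FPKM in CKO and 18.6 FPKM in WT, also had every CKO library above every WT library, but its change of 0.30 ± 0.12 did not pass (edgeR adjusted p = 0.121). Kdm6a (UTX), an X-linked demethylase of H3 lysine 27 and subunit of the KMT2C and KMT2D complexes (chromosome X, 18162575 to 18279936, plus strand), had 38.7, 49.5, 40.4 and 35.4 CPM in CKO libraries and 17.3, 22.6, 21.7 and 35.6 CPM in WT libraries. WT D164 alone overlapped the CKO range, and the log2 fold change was 0.75 ± 0.21 (SE, edgeR adjusted p = 0.0444). Kdm6b (JMJD3), a paralog of Kdm6a that Toll-like receptor ligands induce in macrophages, did not pass at 15.6 ± 0.956 CPM in CKO and 18.3 ± 4.79 CPM in WT (edgeR adjusted p = 0.409), and WT D164 alone was at 25.5 CPM. Kdm5b gave 0.76 ± 0.22 (edgeR adjusted p = 0.055), Kdm7a 0.68 (edgeR adjusted p = 0.0625) and Kdm5a 0.47 (edgeR adjusted p = 0.0753), all short of the threshold with edgeR. DESeq2 called all 3 (adjusted p = 0.0138, 0.0193 and 0.0466), and limma-voom called Kdm5b (adjusted p = 0.0419). Kdm5c, the most abundant JmjC gene, ranged from 49.5 to 151 CPM in CKO and from 55.5 to 150 CPM in WT, so its difference was within the spread (−0.31 ± 0.33).

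No histone deacetylase passed. Of 11 tested, 0 passed with edgeR and 4 had an unadjusted p under 0.05, with 2 higher and 2 lower in CKO, where 28.6% of all genes did. DESeq2 called 1, Hdac3, and limma-voom called 0, where they called 17.2% and 10.1% of all genes. Hdac1, which with Smarce1 had the highest level among the members, at 89.3 ± 7.47 FPKM in CKO and 87.3 ± 4.78 FPKM in WT, gave 0.03 with a 95% interval of −0.21 to 0.27, and Hdac2 gave 0.07 (edgeR adjusted p = 0.706). Hdac3, the enzyme of the NCoR and SMRT corepressor complexes, had 73.2, 67.1, 67.3 and 71.7 CPM in CKO libraries and 90.4, 85.0, 90.0 and 82.6 CPM in WT libraries. All CKO values were below all WT values, but the log2 fold change of −0.32 ± 0.10 did not pass (edgeR adjusted p = 0.0667). The most abundant class IIa gene, Hdac5, had 0.756 FPKM in CKO and 0.795 FPKM in WT (log2 fold change −0.07, edgeR adjusted p = 0.877). Hdac6, a mainly cytoplasmic tubulin deacetylase of class IIb, had 2.55 FPKM in CKO and 1.97 FPKM in WT (0.37, edgeR adjusted p = 0.345). The class IIa gene Hdac9 (1.01 ± 0.45) and the class IV gene Hdac11 (−0.80 ± 0.56) were both under 1 CPM on average, with wide errors. Of the 7 sirtuins 1 passed, Sirt1 (14.3%, against 8.87% of all genes tested). Sirt1, an NAD-dependent deacetylase of histones and of transcription factors such as NF-kB p65 (chromosome 10, 63319005 to 63381704, minus strand), had 50.5, 45.9, 50.1 and 47.5 CPM in CKO libraries and 24.99, 33.8, 30.6 and 40.8 CPM in WT libraries. No library overlapped between the groups, and the log2 fold change was 0.58 ± 0.15 (SE; 95% interval 0.25 to 0.90; edgeR adjusted p = 0.037). Sirt2, the sirtuin with the highest mean over both groups at 22.8 FPKM in CKO and 29.5 FPKM in WT, lay at −0.37 (edgeR adjusted p = 0.129), and its neighbour Nfkbib on the other strand, at 686 CPM in CKO and 940 CPM in WT, overlaps it.

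Among the 8 tested genes with Brd names 1 passed, Brd9 (12.5%, against 8.87% of all genes tested). Brd9, a subunit of the non-canonical SWI/SNF complex (chromosome 13, 73937811 to 73960895, plus strand), had 30.2, 24.7, 25.7 and 22.3 CPM in CKO libraries and 36.1, 40.7, 37.3 and 34.5 CPM in WT libraries. All CKO values were below all WT values, at a log2 fold change of −0.53 ± 0.13 (SE; 95% interval −0.82 to −0.25; edgeR adjusted p = 0.0323). Brd2 had 23.8 FPKM in CKO and 22.6 FPKM in WT, a log2 fold change of 0.08 (edgeR adjusted p = 0.824). Brd7 had 9.98 FPKM in CKO and 10.03 FPKM in WT, a log2 fold change of −0.01 (edgeR adjusted p = 0.97).

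**Figure D3:**
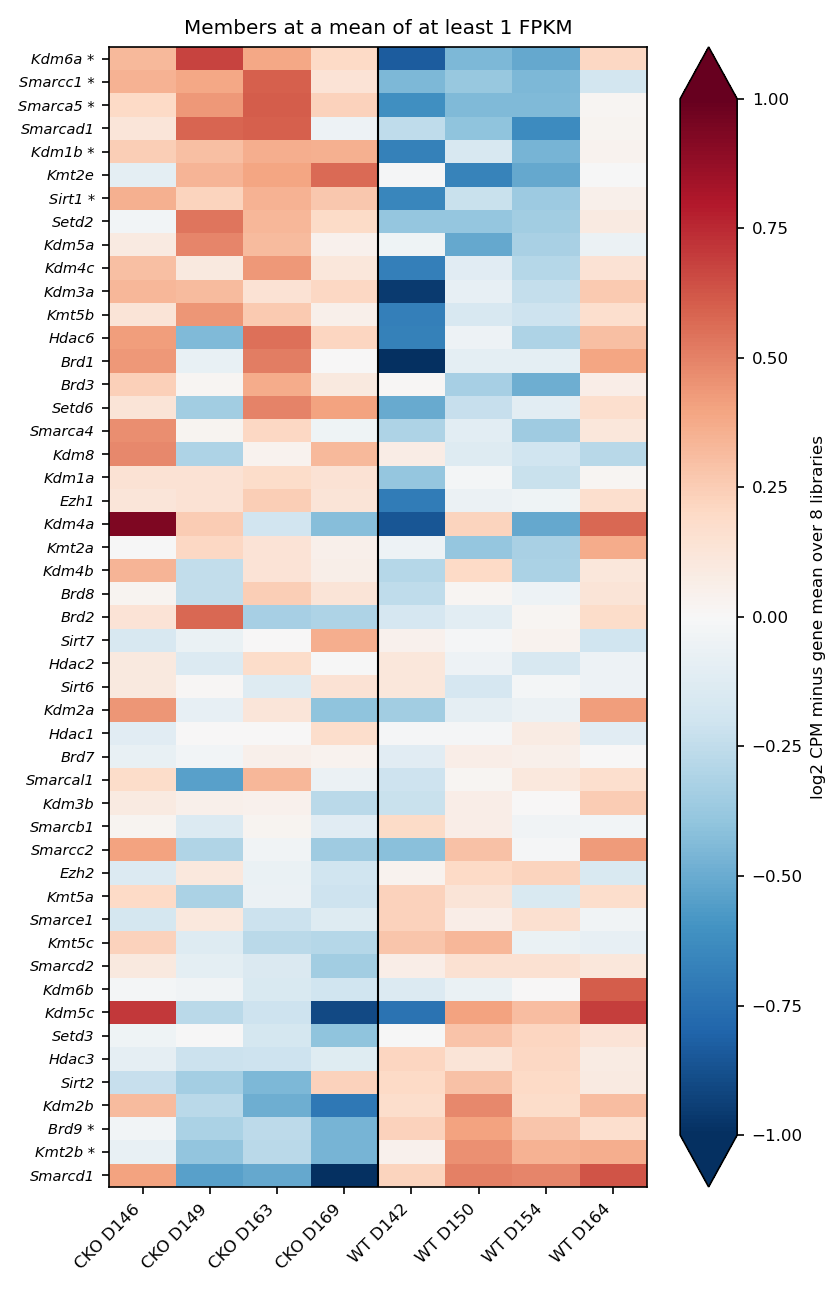
Centred log2 CPM (gene mean over the 8 libraries subtracted) of 49 members at a mean of 1 FPKM or more, ordered by log2 fold change, with CKO libraries left of WT libraries. The colour scale is capped at −1 and 1, an asterisk marks members that passed, and WT D164 is above its gene mean for many of the genes whose CKO libraries are high.

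Levels spread widely among the members. Of the 75 in the table, 17 averaged at least 10 FPKM and 25 averaged under 1 FPKM. The genes that passed were of middle to low level, except Smarca5: Kmt2c averaged 0.596 FPKM in CKO and 0.282 FPKM in WT, and Smarca2 0.948 FPKM in CKO and 0.597 FPKM in WT.

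Ratios between paralogs within a library, which do not depend on scaling between libraries, gave a second view of the same changes. They were not adjusted for GC content, which was 42.5% in Kdm6a and 59.6% in Kdm6b, and 44.4% in Kdm1b and 51.7% in Kdm1a. It was 47.6% in Kmt2c and 58.4% in Kmt2d, and 50.6% in Kmt2a and 59.1% in Kmt2b. The part of GC content in these ratios was not tested. The pairs were chosen after their values had been seen, so they are a description. The Kdm6a to Kdm6b ratio was 1.94 to 2.52 in CKO libraries and 0.945 to 1.18 in WT libraries, and the Kdm1b to Kdm1a ratio was 0.220 to 0.236 in CKO libraries and 0.167 to 0.207 in WT libraries. Neither ratio overlapped between the groups. The Kmt2c to Kmt2d ratio was 0.804 to 2.76 in CKO libraries and 0.340 to 0.802 in WT libraries, with CKO D146 next to WT D142. The Smarcc1 to Smarcc2 ratio, at 0.243 to 0.407 in CKO and 0.159 to 0.249 in WT, overlapped through CKO D146. Hdac1 to Hdac2, at 5.35 to 7.002 in CKO and 5.69 to 7.33 in WT, overlapped over most of the range.

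**Figure D4:**
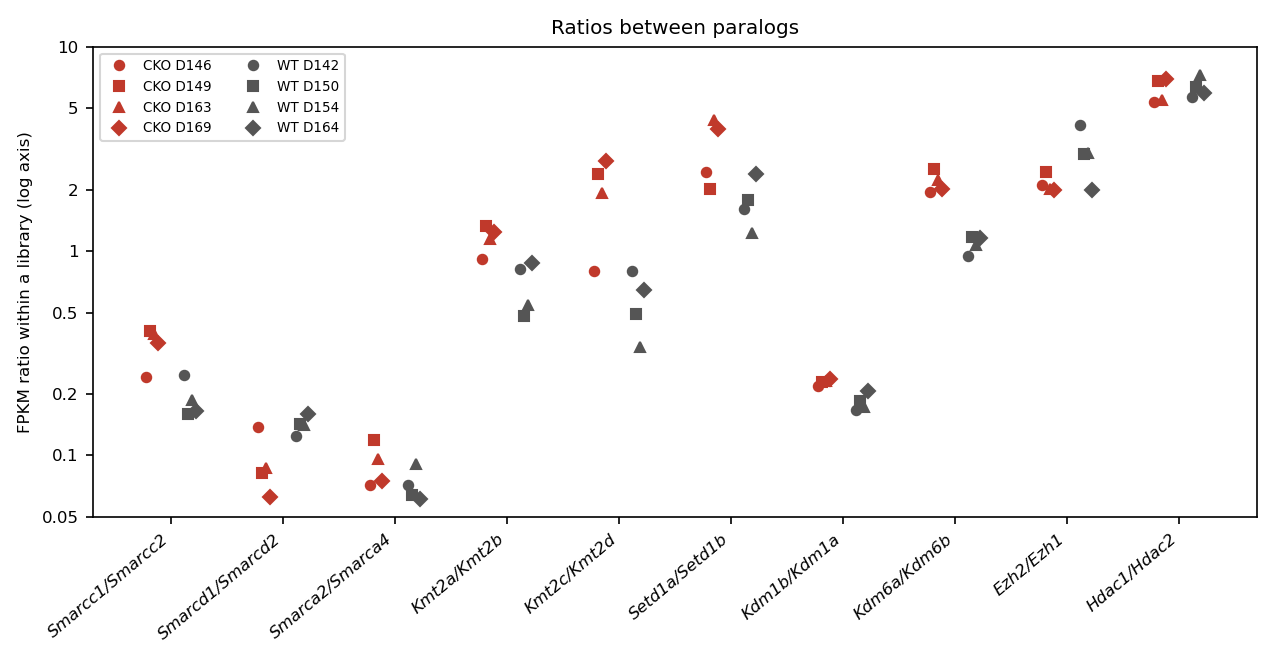
The ratio of FPKM between 10 pairs of paralogs in each library (log axis), with CKO libraries (red) left of WT libraries (grey). Kdm6a/Kdm6b, Kdm1b/Kdm1a, Kmt2a/Kmt2b and Kmt2c/Kmt2d have every CKO library above every WT library.

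GC content moved with the fold changes. Across the 72 tested members, log2 fold change and transcript GC content had a Spearman correlation of −0.44 (n = 72), against −0.30 over all genes tested, a description across genes that share libraries. For gene length the correlation was 0.14 over the members and 0.27 over all genes. Median GC was 44.4% for the 7 higher members, 53.8% for the 2 lower and 51.7% for the 63 that did not pass. With an offset for GC and length in each library, 4 members passed as higher and 5 as lower, where 9.37% of all genes passed, 3.88% higher and 5.49% lower. Smarcc1 (log2 fold change 0.55, edgeR adjusted p = 0.0259), Smarca5 (0.48, edgeR adjusted p = 0.0297), Sirt1 (0.45, edgeR adjusted p = 0.0482), Kmt2b (−0.51, edgeR adjusted p = 0.0353) and Brd9 (−0.70, edgeR adjusted p = 0.0119) still passed. Kmt2c (0.72, edgeR adjusted p = 0.0643), Kdm1b (0.48, edgeR adjusted p = 0.0503), Kdm6a (0.50, edgeR adjusted p = 0.0585) and Smarca2 (0.40, edgeR adjusted p = 0.154) kept their direction and did not. Hdac3, Setd3 and Kdm2b then passed as lower and Smarca4 as higher, with edgeR adjusted p of 0.0294, 0.0341, 0.0277 and 0.0388.

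**Figure D5:**
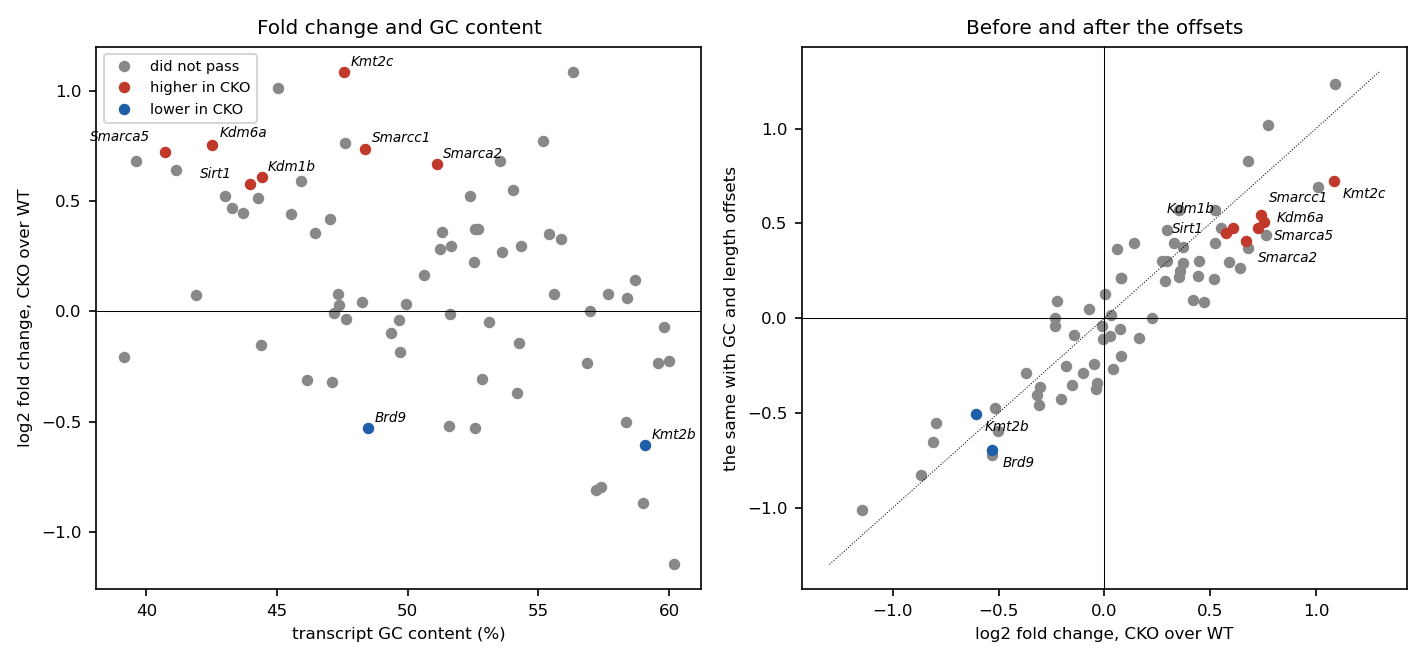
Left, log2 fold change (CKO over WT) against transcript GC content for the 72 tested members. Right, the log2 fold change with GC and length offsets against that without them, with the dotted line marking equality; the points of genes that passed as higher lie below it, and all keep a positive value.

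Complex partners and related enzymes outside the named families were also tested. Of 95 such genes with counts deposited, 92 were tested; 4 passed as higher and 1 as lower, or 5.43%, where 8.87% of all genes tested passed. Chd1, a remodeler that binds methylated lysine 4 of H3, had 52.8, 60.8, 59.0 and 41.6 CPM in CKO libraries and 27.6, 27.6, 29.7 and 39.5 CPM in WT libraries (log2 fold change 0.78 ± 0.16, edgeR adjusted p = 0.0209). All CKO values were above all WT values. Pbrm1, a bromodomain subunit of PBAF, gave 0.86 ± 0.21 (edgeR adjusted p = 0.0332), and Ash2l, a core subunit of the KMT2 and SETD1 complexes, gave 0.56 ± 0.15 (edgeR adjusted p = 0.0412), both without overlap. Among the 9 PRC2 genes, the accessory Polycomb-like proteins went opposite ways: Mtf2 gave 0.58 ± 0.15 (edgeR adjusted p = 0.0398) and Phf1 −0.80 ± 0.22 (edgeR adjusted p = 0.0443). Both overlapped between the groups through CKO D146, at 25.3 CPM for Mtf2 (25.4 in WT D164) and 24.7 CPM for Phf1 (24.0 in WT D142). Transcript GC content was 38.2% for Mtf2 and 58.6% for Phf1. Pbrm1, Ash2l and Mtf2 did not pass as higher with the GC and length offset, nor with the B cell marker covariate. Phf1 did not pass with that covariate either. Of the 8 CHD remodelers as a list, 1 passed as higher in each of these fits, where 3.88% and 2.4% of all genes did. With the offset 1 also passed as lower, where 5.49% of all genes did. Of all genes tested, 28.6% had an unadjusted p under 0.05, 17.2% passed with DESeq2 and 10.1% with limma-voom. Of 12 histone acetyltransferases 0 passed with edgeR, 2 had an unadjusted p under 0.05, 1 passed with DESeq2 and 0 with limma-voom. Of 14 HDAC corepressor genes 0 passed with edgeR, 6 had an unadjusted p under 0.05, 2 passed with DESeq2 and 0 with limma-voom. In the edgeR fit with the B cell marker covariate 1 of the 14 passed as higher.

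The counting was not stated to use strand, so where a gene overlaps another on the opposite strand their reads may have been mixed. Kdm1b overlaps Dek, which averaged 213 ± 41.7 CPM in CKO and 229 ± 31.3 CPM in WT and did not pass (edgeR adjusted p = 0.683). Smarcc1 overlaps Dhx30, which averaged 58.2 ± 7.33 CPM in CKO and 48.3 ± 3.94 CPM in WT and did not pass (edgeR adjusted p = 0.186). Pbrm1, Mtf2 and Phf1 overlap Gnl3, Tmed5 and Cuta.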

How the data were processed

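Sorted cells gave RNA by a micro kit, polyA RNA was copied and amplified with a SMART-Seq v4 low-input kit, and a Vazyme kit made the libraries, per the labels' protocols. The submitters' processing notes name fastp 0.23.2 and HISAT2 2.2.1, with mm10 as the build. How reads were counted, on which annotation and whether by strand, is not given in the sources used here. Per the file headers, the deposited values are gene counts beside each gene's position, strand and length, and they were whole numbers without normalization. Amplifying cDNA from little RNA can bias libraries by GC content and length, so both were measured.

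Counts were tested with edgeR 4.0.16 in R 4.3.3 after the filterByExpr filter (TMM scaling, robust dispersions, quasi-likelihood F test, Benjamini-Hochberg adjustment over 11702 genes, threshold 0.05). The SE is the size of the log2 fold change divided by the square root of F. CPM were scaled by TMM, and FPKM are these divided by the deposited gene length in kilobases. Log2 CPM used a prior count of 2. Transcript GC content came from GENCODE M21. The GC and length offset was a spline of 5 degrees of freedom in each library over genes at 1 CPM or more. DESeq2 1.42.0, limma 3.58.1 (voom), other scalings and filters, a B cell marker covariate and leaving out each library were the alternatives. The fit was checked on simulated counts with 200 genes changed. Library totals of 25304765 to 40950088 counts and 4 libraries a group limit the precision.

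The members, classes, partner lists and markers were chosen with earlier results of these data known. The genes named with values were those that passed, the most abundant tested member of each class, 15 chosen readouts, members with an adjusted p up to 0.1, and partners that passed. Others were named after their values were seen. The values of 1 member are not reported here.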

Additional observations from a re-analysis of the deposited data

Results flagged for a closer look

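In each group of 4 libraries, the gap between the highest or lowest library and its nearest neighbour was set against the group's whole range for the genes named, 72 groups in all, and 3 groups held a library that stood apart. Chance gives about 1 in 20 groups. Kdm1a in CKO had CKO D163 highest at 121 CPM, with the nearest other library at 118 CPM, in a group whose values were all close. Kdm6b in WT had WT D164 highest at 25.5 CPM, with the nearest at 16.8 CPM. Setd2 in WT also had WT D164 highest at 18.0 CPM, with the nearest at 13.3 CPM.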

How the results depend on the processing

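No paired analysis was possible because no replicate number is shared between CKO and WT. All alternatives kept the direction of the 9 members that passed; of 18 other fits, Smarcc1 passed in 15 and Smarca2, the least often, in 9. Counts are all genes, then members higher and lower, then partners higher and lower, against 1038, 7 and 2, and 4 and 1. DESeq2 gave 2012, 13 and 5, and 9 and 5. Total-count scaling gave 1391 (1080 higher and 311 lower), 14 and 0, and 12 and 0, and moved the median log2 fold change of all genes to 0.19 and of the members to 0.28. The GC and length offset gave 4 and 5 members and 3 partners lower, the B cell covariate 449, 4 and 0, and 2 and 0, and RLE factors 2 partners lower. An adjusted p of 0.01 gave 8, 0 and 0, and 0 and 0, and one of 0.1 gave 2119, 14 and 5, and 12 and 6. Leaving out 1 library gave 70 to 1468 genes, 0 to 14 members higher and 0 to 6 lower, and 0 to 9 partners higher and 0 to 3 lower. Over the 36 named genes followed, only ones that did not pass turned in sign. Total-count scaling turned Brd7 (0.16), Ezh2 (0.0103) and Hdac5 (0.10), the offset Hdac2 (−0.0555), Hdac5 (0.0472) and Kdm6b (0.000472; outside the 36, also Kmt2a, Kmt5c, Kdm2a, Sirt5 and Brd8, at −0.11, 0.09, −0.27, −0.09 and −0.20), and the B cell covariate Hdac1 (−0.00147) and Hdac2 (−0.0180). Leaving out 1 library turned Brd2 (range −0.14 to 0.21), Brd7 (−0.0456 to 0.0147), Hdac1 (−0.0226 to 0.0745) and Hdac5 (−0.28 to 0.11). The cause was not tested. With 4 libraries a group, changes smaller than those printed may be missed.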

Other observations

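The WT libraries did not contribute equally to the members' differences. WT D164 was the highest WT library for 6 of the 7 members higher in CKO and for 31 of the 45 with a positive fold change (68.9%). Over all genes tested, it was the highest for 362 of the 503 higher in CKO (72.0%). Whatever the direction, it was the highest for 38 of the 72 tested members (52.8%), against 31.3% of all genes tested. WT D142 was the lowest WT library for 5 of those 7 members and for 275 of the 503 genes (54.7%). It was the lowest for 34 of the 72 tested members (47.2%), against 32.9% of all genes tested. On the first principal component of all genes tested (36.01% of the variance), WT D164 was the WT library nearest to the CKO libraries. CKO libraries lay at −40.3 to −15.5, WT D164 at 13.1 and the other WT libraries at 28.8 to 35.99. On the second (19.0%), CKO D149 stood at −51.1, with all other libraries between −5.23 and 18.0.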
